A study of Homo sapiens with 16 samples.

Results

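The genes of the cytosolic translation initiation and elongation factors were followed in Caco-2 cells, a human colorectal adenocarcinoma line used as gut epithelium, and HepG2 cells, a human hepatocellular carcinoma line used as hepatocytes. The members were chosen by name alone: all symbols that begin with EIF1 to EIF6 or EEF1 to EEF2, without processed pseudogene names (ending in P and a number), genes of the eIF4E-binding proteins and hyphenated names. The rule kept 67 of 60623 genes listed, out of 212 with a name of that kind, and left out 139 pseudogene names and 6 hyphenated ones. Both lines were grown in a microfluidic gut-liver chip, either alone (mono-culture) or with the other line in a connected chamber (co-culture), and each culture was left untreated (control) or given free fatty acids (FFA, palmitic acid and oleic acid, 1 mM in total) for 1 day by the labels. The paper describes sequencing after both a 1-day and a longer treatment, and the prefix LTC in the sample titles is not explained, so the duration rests on the labels' treatment text alone. Each of the 8 groups had 2 libraries of polyadenylated RNA, amplified as cDNA by PCR and read on a Nanopore sequencer. The labels list serum in the medium for growth and fatty acid-free albumin, with no serum, in the FFA medium, and they do not say which of these the controls had on that day. Each line is a single tumour line, and the labels of RNA extraction name primary myoblasts where those of the samples name Caco-2 and HepG2. The study's methods say that the sequencing drew on independent experiments, without tying libraries to experiments or chips, so p-values measure only the spread between these libraries, part of which may be technical.

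Initiation begins when eIF2 brings the initiator tRNA to the small ribosomal subunit together with eIF1, eIF1A, eIF3 and eIF5. The eIF4 group, made of the cap-binding protein eIF4E, the scaffold eIF4G and the helicase eIF4A with its helpers eIF4B and eIF4H, loads that complex on the capped end of the mRNA. The guanine nucleotide exchange factor eIF2B recharges eIF2, and 4 kinases that phosphorylate eIF2 (EIF2AK1 to EIF2AK4) slow this step under stress. During elongation eEF1A delivers aminoacyl-tRNA, the eEF1B complex (EEF1B2, EEF1D, EEF1G) recharges it, eEF2 moves the ribosome along the mRNA, and eIF5A helps it past difficult stretches. Many mRNAs of the translation machinery, EEF1A1 and EEF2 among them, begin with a cytosine followed by a run of pyrimidines, the terminal oligopyrimidine (TOP) tract, through which their translation is tied to growth signals.

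Levels are in CPM (counts per 1000000 reads of the same library) and were not divided by gene length. The libraries held 353871 to 974654 reads in Caco-2, 430815 to 1657430 in the HepG2 controls and 49634 to 424538 in the HepG2 FFA groups, so that every HepG2 FFA library was shallower than every HepG2 control. A count of 3 reads, the floor of detection used here, stood for 1.81 to 60.4 CPM, the highest being HepG2 co-culture FFA replicate 2. Of 12 hepatocyte markers, 10 (not APOA1 and TTR) separated HepG2 from Caco-2 without overlap, and the 12 summed to 45716 to 79400 CPM in HepG2 against 8932 to 12109 CPM in Caco-2. Of 12 intestinal markers, 3 separated the lines in the other direction, with summed levels of 25.5 to 121 CPM in HepG2 and 123 to 203 CPM in Caco-2. Of the intestinal factors, CDX1 was at 0 in both lines, and CDX2 ranged over 0 to 6.16 CPM in Caco-2 and was at 0 in HepG2. FABP2, another of the 12, was higher in HepG2 without overlap, at 2.11 to 20.2 CPM against 0 to 1.98 CPM in Caco-2. In such bulk libraries, fewer cells of a type and less RNA per cell cannot be told apart.

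The members took 217666 of 9841406 reads, or 2.21%, and their share of a library ran from 2.03% to 2.60%. In Caco-2 the share was 2.60% and 2.33% in the mono-culture controls, 2.39% and 2.52% in mono-culture with FFA, 2.38% and 2.48% in the co-culture controls, and 2.06% and 2.08% in co-culture with FFA. In HepG2 it was 2.08% and 2.05% in the mono-culture controls, 2.41% and 2.35% in mono-culture with FFA, 2.03% and 2.10% in the co-culture controls, and 2.52% and 2.51% in co-culture with FFA. All HepG2 FFA libraries thus lay above all HepG2 controls, and the 2 Caco-2 co-culture FFA libraries were the lowest of Caco-2. Reads of EEF1A1, the main form of eEF1A, made up between 35.1% and 39.5% of the members' reads in each Caco-2 library and between 24.6% and 33.3% in each HepG2 library. The next most frequent reads came from EIF1, with a mean of 2755 CPM over all 16 libraries, then from the eEF1B subunits EEF1B2 (2237 CPM) and EEF1G (1925 CPM) and from EIF2S2, the beta subunit of eIF2 (1181 CPM). At the other end EIF4E1B had no read, and EEF1A2 and EIF4E3 had 1 read each. A gene was tested where its mean reached 1 CPM in at least 1 group, which held for 65 members in Caco-2, 64 in HepG2 and 65 over both lines. EIF1AY, a Y-linked copy of eIF1A, is included in these counts and its values are not given.

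**Figure D1:**
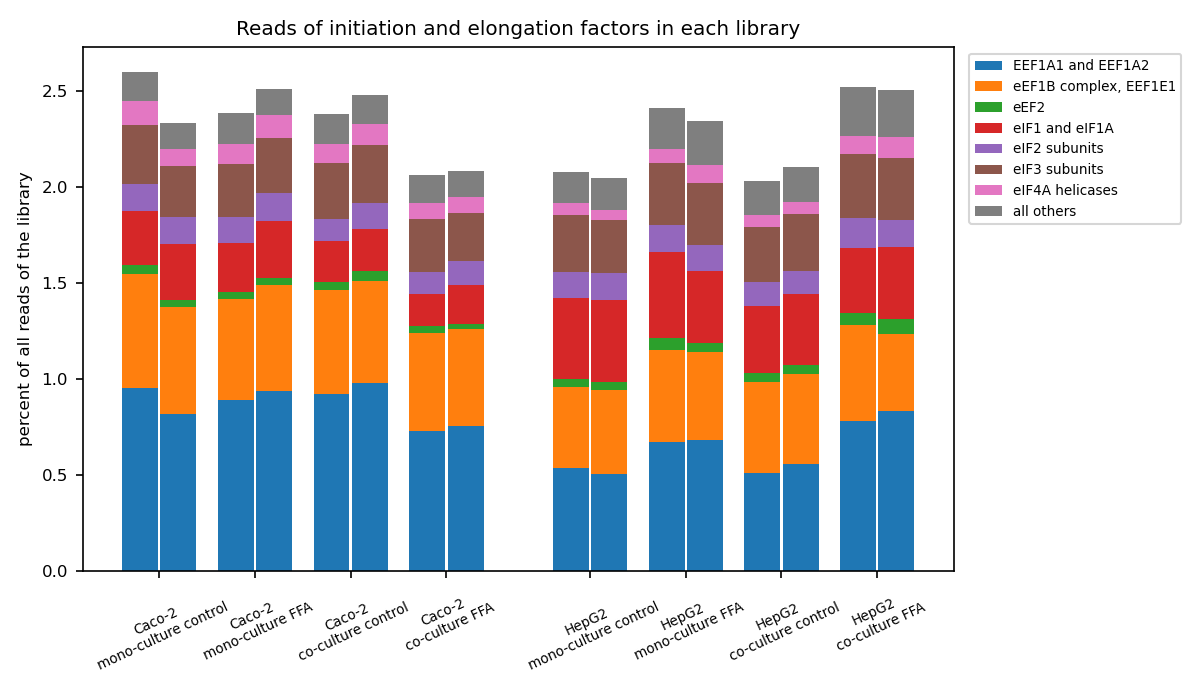
Percent of all reads of each library (vertical axis) taken by the factor genes, stacked by role, with 1 bar per library and 2 bars per group. The bars reach 2.03% to 2.60%, and the 4 HepG2 FFA bars stand above the 4 HepG2 control bars.

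The sequence around the annotated start of transcription was read for the members that the comparisons turn on, to show which of them begin with a TOP-like tract. The windows below hold 10 bases before the start and 20 bases from the start on, taken from RefSeq promoter windows on GRCh38.p14 and written in the direction of the gene. Capitals mark a C at the start followed by at least 4 bases that are C or T, and the first 6 windows have such a tract while the last 3 do not. The positions are chr6:73521013-73521042 (minus strand) for EEF1A1, chr19:3985444-3985473 (minus) for EEF2, chr3:186783567-186783596 (plus) for EIF4A2, chr19:38619178-38619207 (plus) for EIF3K, chr11:7987327-7987356 (plus) for EIF3F, chr22:36529147-36529176 (minus) for EIF3D, chr17:7572815-7572844 (plus) for EIF4A1, chr11:62573872-62573901 (minus) for EEF1G and chr17:41688875-41688904 (plus) for EIF1.
EEF1A1: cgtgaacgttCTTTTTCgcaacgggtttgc
EEF2: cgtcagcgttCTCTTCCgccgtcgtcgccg
EIF4A2: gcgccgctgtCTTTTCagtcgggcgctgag
EIF3K: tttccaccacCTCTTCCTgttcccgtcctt
EIF3F: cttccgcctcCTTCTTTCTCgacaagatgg
EIF3D: cgcatgtttcCTCTTTTCCTggtttctcaa
EIF4A1: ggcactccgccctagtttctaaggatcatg
EEF1G: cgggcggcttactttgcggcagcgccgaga
EIF1: ccgcccctctgccccagtcactgagccgcc

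Of the 67 members, 53 were matched in the promoter table and 13 of these (24.5%) had the tract exactly at an annotated start, against 1404 of 27305 genes (5.14%) and 1429 of 35116 promoter windows (4.07%). With the first C allowed within 3 bases of the start, 17 members (32.1%) and 13% of all windows had it. The search ran on the strand of the gene only, and a window without the tract says only that these letters are not at that annotated start.

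The first comparison asked which factors differed between the lines, over all 16 libraries. HepG2 had more reads of the helicase EIF4A1, of EIF5A, of EIF1 and of EIF3C, a core eIF3 subunit, whereas Caco-2 had more of the helicase EIF4A2, of EIF5A2, of EEF1G and of EEF1A1. In limma with Benjamini-Hochberg adjustment, 32 of 65 members passed an adjusted p of 0.05, 22 higher in HepG2 and 10 higher in Caco-2. Over all genes tested 30.3% passed (12.5% higher and 17.9% lower in HepG2). The members passed more often than this background, mainly towards HepG2, but the background was not matched for level of expression. By unadjusted p 36 members were under 0.05, against 40.4% of all genes. The median log2 difference (HepG2 minus Caco-2) was 0.19 over the members and -0.16 over all genes tested. The ranges of the 8 libraries of each line did not overlap for 17 members, 13 higher and 4 lower in HepG2, against 10.3% of all genes (4.3% higher and 5.97% lower). With libraries thinned to 49634 reads 14 members passed, and with median-ratio scaling 31 passed, of which 18 were higher in HepG2. The share of all genes under these settings is not given here, so these counts are not set against a background.

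**Figure D2:**
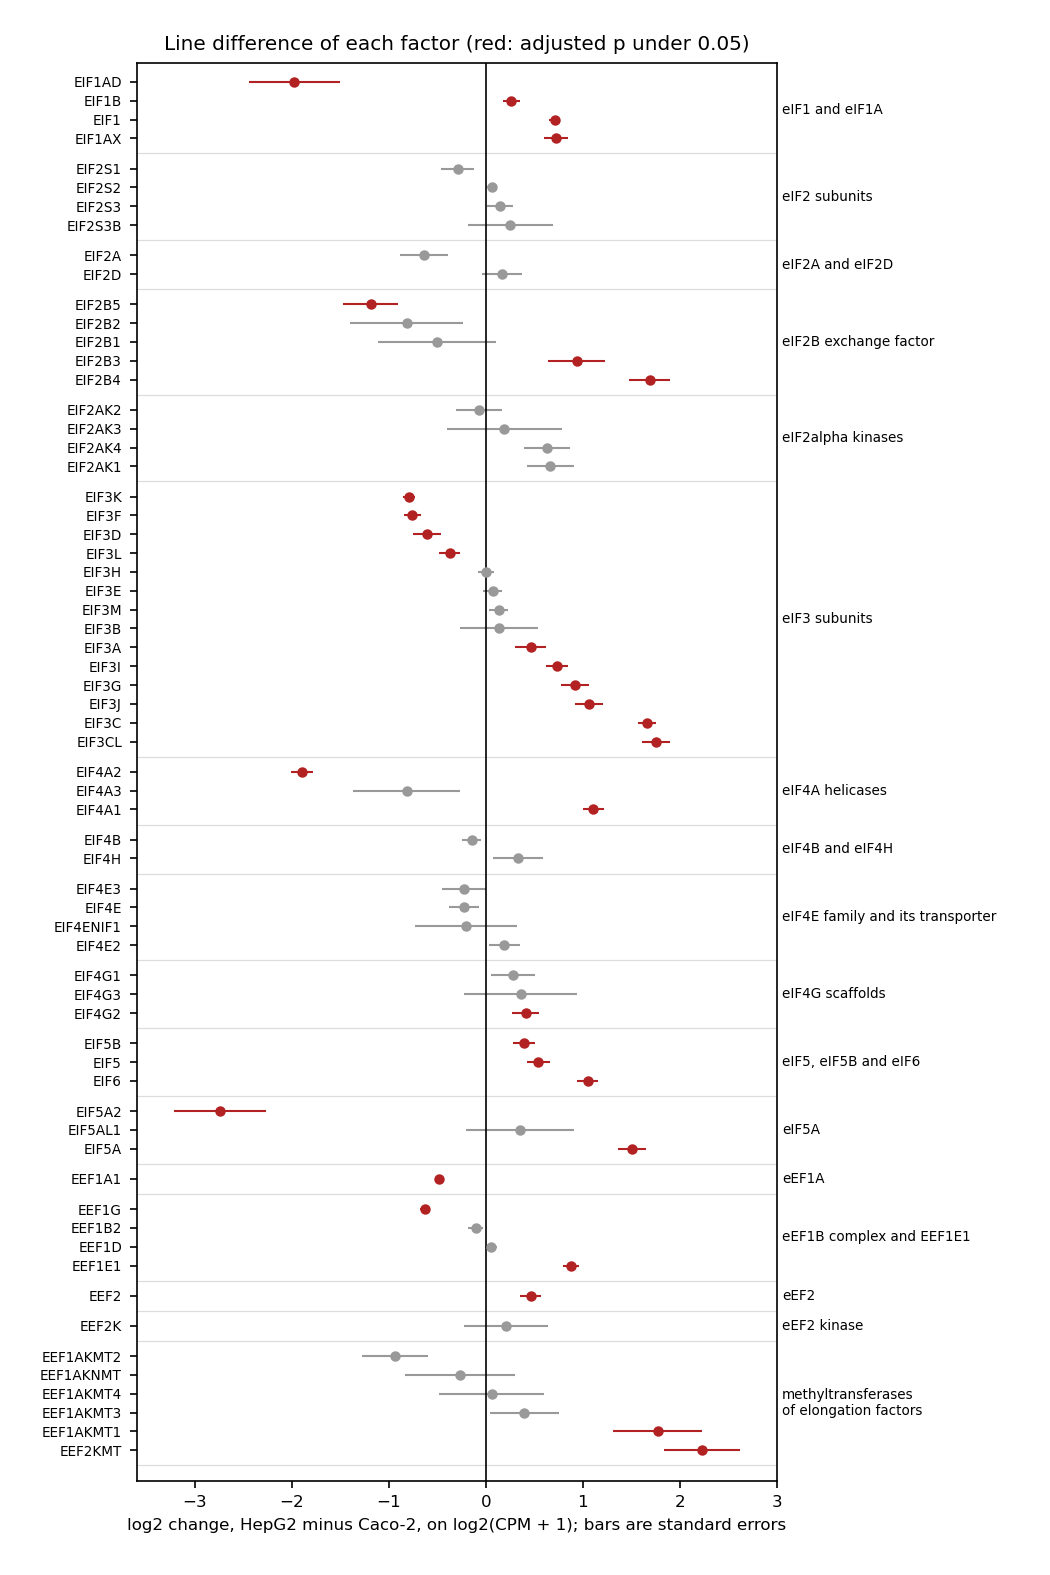
Difference between the lines for each tested factor but EIF1AY, as log2 change of HepG2 minus Caco-2 on log2(CPM + 1), grouped by role; bars are standard errors from limma and red points passed an adjusted p of 0.05. EIF4A1 (1.11) and EIF4A2 (-1.89) lie on opposite sides of 0, as do EIF5A (1.51) and EIF5A2 (-2.74).

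The eIF4A helicases, which unwind the start of the mRNA, differed between the lines in opposite directions. EIF4A2 (ENSG00000156976, chr3:186783205-186789897, plus strand, GRCh38) ranged over 549 to 895 CPM in Caco-2 with a median of 774, and over 132 to 322 CPM in HepG2 with a median of 202. The libraries of the lines did not overlap, and the log2 difference was -1.89 ± 0.12 (SE, limma adjusted p = 1.94e-08). EIF4A1 (ENSG00000161960, chr17:7572824-7579006, plus strand) ranged over 205 to 320 CPM in Caco-2 with a median of 242, and over 365 to 766 CPM in HepG2 with a median of 488. Again no library of one line reached the range of the other, with HepG2 higher (1.11 ± 0.11, adjusted p = 2.27e-06). EIF4A2 therefore supplied 68.7% to 80.5% of the reads of the pair in each Caco-2 library and 21.8% to 34.5% in each HepG2 library. The shallowest library, HepG2 co-culture FFA replicate 2, had 16 EIF4A2 reads of 54 (29.6%, 95% exact binomial interval 18% to 43.6%, counting error only). The coding sequences of the pair have 1221 and 1224 bases and 77.5% identity in alignment. The genes overlap other transcripts on their own strand, EIF4A2 with SNORD2, SNORA63, SNORA81 and SNORA4 and EIF4A1 with SENP3-EIF4A1, SNORA48, SNORD10 and SNORA67, and the part of these in the counts was not tested. EIF4A3, the helicase of the exon junction complex, had -0.82 ± 0.55 and did not pass (adjusted p = 0.296).

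The eIF5A genes showed a similar opposition. EIF5A (ENSG00000132507, chr17:7306999-7312463, plus strand) ranged over 46.8 to 101.2 CPM in Caco-2 with a median of 78.2, and over 126 to 421 CPM in HepG2 with a median of 204. The ranges were separate, and the log2 difference was 1.51 ± 0.15 (adjusted p = 2.21e-06). EIF5A2 (ENSG00000163577, chr3:170888418-170908644, minus strand), the second form of the factor, ranged over 11.3 to 49.3 CPM in Caco-2 with a median of 29.5, and over 0 to 10.9 CPM in HepG2 with a median of 3.5. The HepG2 values rested on 0 to 7 reads per library, and the difference of -2.74 ± 0.47 passed (adjusted p = 4.67e-04). EIF5A2 gave 13.3% to 39.7% of the reads of this pair in Caco-2, and 0% to 4.35% of them in the HepG2 libraries. The coding sequences of EIF5A and EIF5A2 have 73.3% identity. Those of EIF5A and EIF5AL1 have 98.9%, so reads of EIF5A and EIF5AL1 may be exchanged, and EIF5A overlaps GPS2 on the opposite strand without a stated use of strand in counting.

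**Figure D3:**
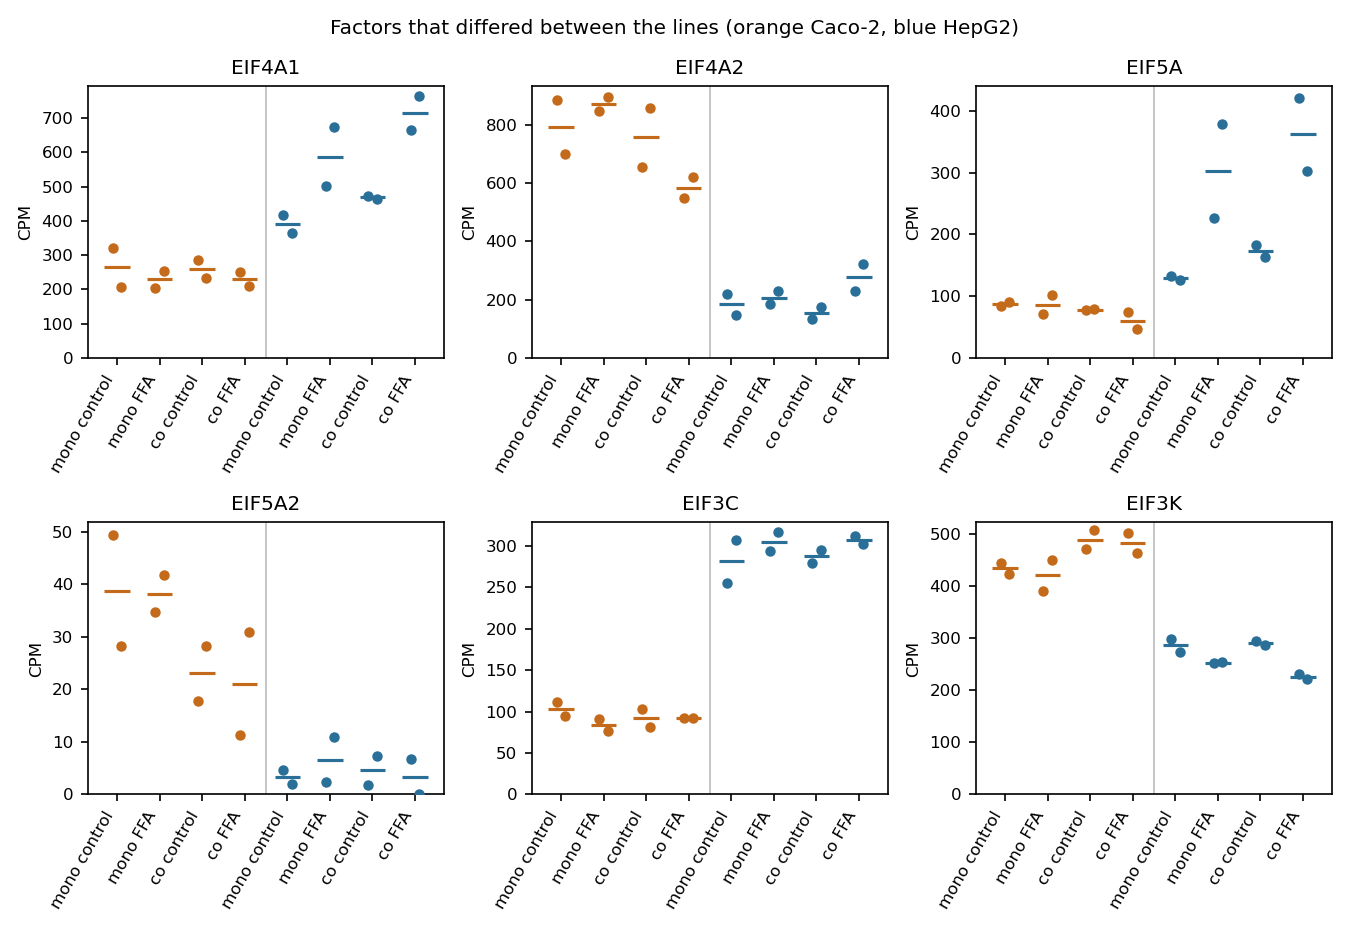
CPM of 6 factors (vertical axes, from 0) in each library by culture and treatment, Caco-2 in orange and HepG2 in blue; points are libraries and lines are group means of 2. The lines are separated without overlap for all 6, with EIF4A1, EIF5A and EIF3C higher in HepG2 and EIF4A2, EIF5A2 and EIF3K higher in Caco-2.

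The subunits of eIF3, the large scaffold of the initiation complex, did not differ as a unit. Of 14 tested, 10 passed, 6 of them higher in HepG2 and 4 higher in Caco-2. EIF3C (ENSG00000184110, chr16:28688558-28735727, plus strand) had a mean of 93.2 ± 11.0 CPM in Caco-2 and 296 ± 19.98 CPM in HepG2 (SD, n = 8 each), a log2 difference of 1.66 ± 0.096 (SE, limma adjusted p = 1.02e-08). Its near-identical copy EIF3CL (ENSG00000205609, chr16:28379579-28403841, minus strand), at 99.9% coding identity, had 69.3 ± 16.2 and 230 ± 15.6 CPM and the difference 1.75 (adjusted p = 4.62e-07), so the split of reads between the copies is uncertain while both were high in the same line. EIF3J (1.06), EIF3G (0.92) and EIF3I (0.73) also lay above the Caco-2 range in each HepG2 library. Towards Caco-2, EIF3K (ENSG00000178982, chr19:38619082-38636955, plus strand) ranged over 391 to 509 CPM in Caco-2 and 222 to 299 CPM in HepG2 (-0.79, adjusted p = 5.10e-07), without overlap. EIF3F, EIF3D and EIF3L were lower in HepG2 by -0.76, -0.61 and -0.37, with overlapping libraries, and EIF3A passed at 0.46 (adjusted p = 0.0419). In HepG2 co-culture FFA replicate 2, its highest library, EIF3A had 242 CPM on 12 reads. Under the other settings of the processing, apart from leaving out a library, EIF3A kept its call in 4 and missed it in 6. EIF3L kept its call in 8 of these settings and missed it in 2. EIF3H, at 373 ± 35.0 and 375 ± 46.9 CPM, EIF3E at 454 ± 37.6 and 483 ± 91.1 CPM, and EIF3B and EIF3M did not pass.

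Among the other initiation factors, EIF1 (ENSG00000173812, chr17:41688885-41692668, plus strand), which guards the choice of the start codon, ranged over 1386 to 2618 CPM in Caco-2 and 2882 to 3946 CPM in HepG2, again without overlap (0.71 ± 0.057, adjusted p = 3.39e-07). EIF1AX, EIF1B and the eIF1A-related EIF1AD passed as well, EIF1AX at 0.72, EIF1B at 0.26 and EIF1AD at -1.97, the last on 49 reads in Caco-2 and 16 in HepG2. EIF6, which keeps the large ribosomal subunit free until it is needed, had 177 ± 36.2 CPM in Caco-2 and 366 ± 57.0 CPM in HepG2 (SD, n = 8) and passed at 1.05 (limma adjusted p = 4.78e-06). EIF5, the GTPase-activating protein of eIF2, and EIF5B, which joins the subunits, were higher in HepG2 by 0.54 and 0.39. Of 5 eIF2B subunits, EIF2B4 (1.69) and EIF2B3 (0.94) were higher in HepG2 and EIF2B5 (-1.19) was higher in Caco-2. Without the co-culture FFA libraries of both lines EIF2B5 was at -0.34 and EIF2B3 at 0.55 and neither passed. None of the 4 tested eIF2 subunit genes passed (EIF2S2 had 1155 ± 127 and 1207 ± 103 CPM), none of the 4 eIF2 kinases (EIF2AK1 came closest at 0.66, adjusted p = 0.0503), and none of the 4 tested genes of the eIF4E family. EIF4G2, a scaffold that does not bind the cap protein, passed at 0.41 (adjusted p = 0.0365), while EIF4G1, EIF4B and EIF4H did not. Under the other settings of the processing, apart from leaving out a library, EIF4G2 kept its call in 7 and missed it in 3. EIF1B kept its call in 5 and missed it in 5, and EIF5B kept its call in 8 and missed it in 2.

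Of the elongation factors, EEF1A1 (ENSG00000156508, chr6:73489308-73525587, minus strand) ranged over 7303 to 9811 CPM in Caco-2 with a median of 9068, and over 5047 to 8341 CPM in HepG2 with a median of 6145. The 2 HepG2 co-culture FFA libraries reached into the Caco-2 range, and the difference was -0.48 ± 0.035 (adjusted p = 1.10e-07). EEF1G (ENSG00000254772, chr11:62559596-62574086, minus strand), the gamma subunit of eEF1B, ranged over 2025 to 2652 CPM in Caco-2 and 1233 to 1869 CPM in HepG2, without overlap (-0.63 ± 0.049, adjusted p = 2.30e-07). The other eEF1B subunits did not follow it, with EEF1B2 at 2309 ± 166 and 2165 ± 317 CPM and EEF1D at 631 ± 97.7 and 651 ± 66.7 CPM (SD, n = 8 each), and neither passed. EEF1E1, which overlaps the readthrough gene EEF1E1-BLOC1S5 and encodes a scaffold protein of the aminoacyl-tRNA synthetase complex, ranged over 111 to 146 CPM in Caco-2 and 218 to 248 CPM in HepG2, and passed at 0.88 (limma adjusted p = 2.20e-06). EEF2 was higher in HepG2 (0.46, adjusted p = 3.73e-03), but at 0.23 it did not pass without the co-culture FFA libraries. Of 6 methyltransferases of the elongation factors, EEF2KMT (2.23, adjusted p = 5.71e-04) and EEF1AKMT1 (1.77, adjusted p = 9.38e-03) were higher in HepG2.

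Set against the start sequences, the 13 members with the TOP-like tract had a median log2 difference of -0.14 between the lines and the 39 tested members without it 0.28. With the tract 6 passed, EEF2 higher in HepG2 and EEF1A1, EIF4A2, EIF3K, EIF3F and EIF3D higher in Caco-2, and without it 20 passed, 16 of them higher in HepG2. Over all genes tested the medians were -0.22 for 769 genes with the tract and -0.17 for 9899 without it. Of the 769 genes, 288 passed, 89 higher and 199 lower in HepG2. Of the 9899 genes, 3317 passed, 1389 higher and 1928 lower in HepG2. Mitochondrial genes, which share the library total, held 6.29% to 10.6% of the reads in HepG2 and 2.73% to 3.97% in Caco-2, and with them left out 34 members passed.

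FFA treatment of HepG2 was compared with control over both cultures. EEF1A1 rose with FFA, and it was the 1 member of 64 that passed in limma, where 0.0762% of all genes tested passed. EEF1A1 had 5341 and 5047 CPM in the mono-culture controls and 6699 and 6818 CPM in mono-culture with FFA. In co-culture it had 5100 and 5591 CPM in the controls and 7811 and 8341 CPM with FFA. All 4 FFA libraries lay above all 4 controls, and the log2 change was 0.49 ± 0.049 (SE, adjusted p = 0.0372). Taken within a culture the change was 0.38 in mono-culture (adjusted p = 0.712) and 0.60 in co-culture (adjusted p = 0.0510), and no member passed in either, where 0% of all genes passed and 7 and 19 of 64 members had an unadjusted p under 0.05 against 6.26% and 15.9% of all genes. EEF1A1 overlaps MTO1 on the opposite strand. Reads named for 39 processed pseudogenes of EEF1A1, of which 3 to 5 had reads in a library, came to 14.2% to 23.7% of its own CPM, and with them added the change was 0.42 (adjusted p = 0.0373). In HepG2 this percent was 14.2% to 16.9% in the FFA libraries and 19.2% to 23.7% in the controls, without overlap.

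**Figure D4:**
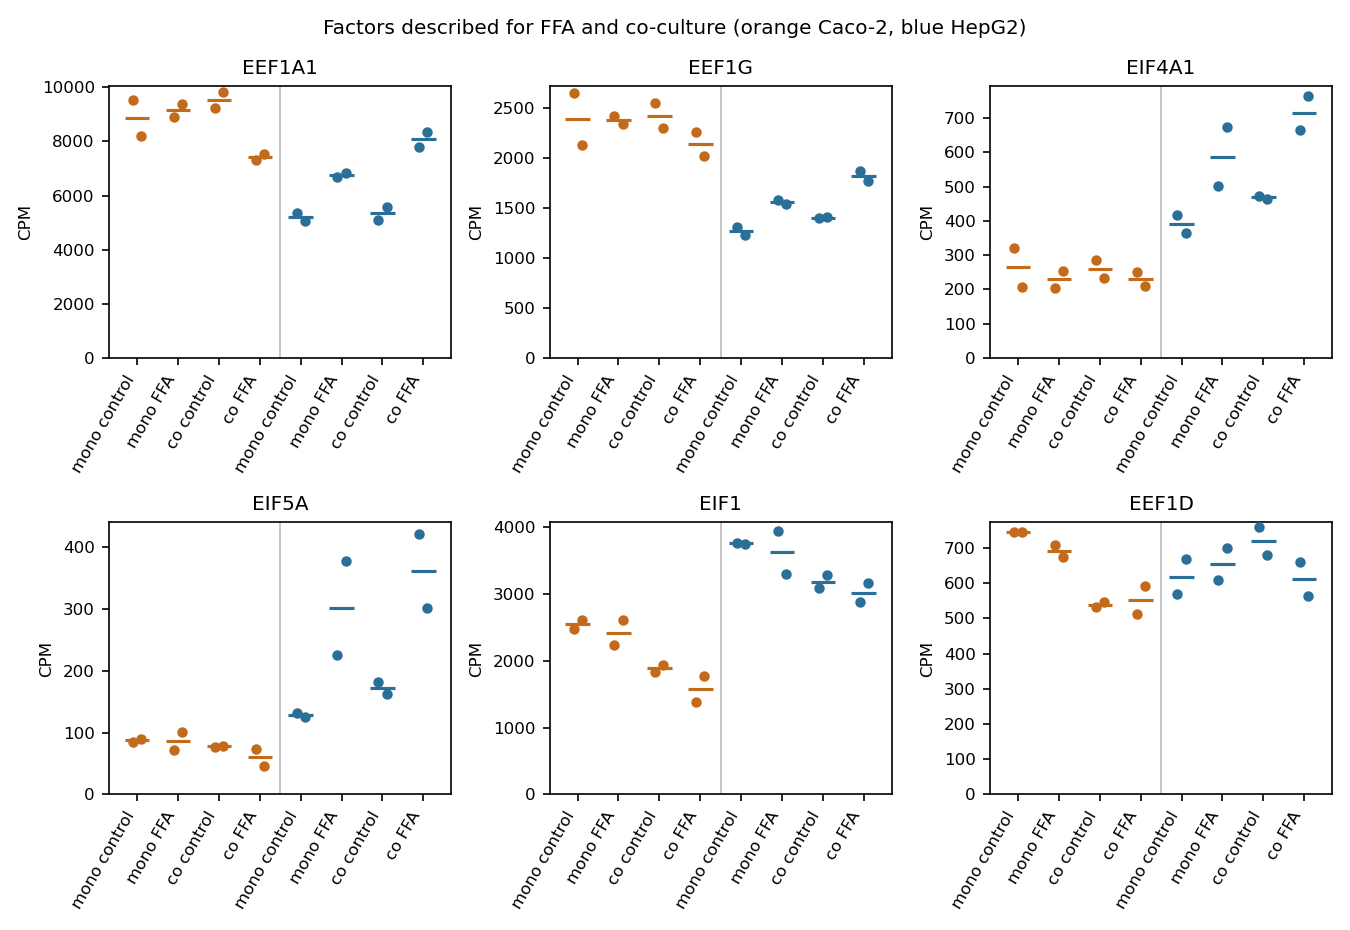
CPM of 6 factors (vertical axes, from 0) in each library by culture and treatment, Caco-2 in orange and HepG2 in blue; points are libraries and lines are group means of 2. In HepG2, EEF1A1, EEF1G, EIF4A1 and EIF5A are above the controls in all 4 FFA libraries, and in Caco-2, EIF1 and EEF1D are lower in all 4 co-culture libraries than in all 4 mono-culture libraries.

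This call depended on the scaling and on single libraries. With median-ratio scaling, which moved the median change of all genes from -0.07 to -0.26, EEF1A1 stood at 0.20 (adjusted p = 0.229), and edgeR on the recovered reads gave 0.30 (adjusted p = 0.0502). It also missed the threshold without mono-culture control replicate 1 (0.180), co-culture control replicate 2 (0.0853) or co-culture FFA replicate 2 (0.0751) as adjusted p in limma, and with libraries thinned to equal depth (0.47, adjusted p = 0.105). Without co-culture FFA replicate 1, which leaves the library of 49634 reads alone in its group, 16 of 64 members passed, against 11.9% of all genes. The summed hepatocyte markers were at 61375 and 79400 CPM in the 2 HepG2 co-culture FFA libraries, against 45716 to 59010 CPM in the other HepG2 libraries, with 7 of 12 higher and 1 lower without overlap, and their part in the FFA changes was not tested. Of the intestinal markers, CDH17, MUC13 and PHGR1, the 3 that separated the lines, were at 0 in both libraries. VIL1 (9 and 5 reads) and FABP2 (1 read in each), which did not separate the lines in that direction, made up the whole intestinal sum there, 68.0 and 121 CPM against 25.5 to 33.2 CPM in the other HepG2 libraries.

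Other factors had higher values in FFA-treated HepG2 without passing. EIF5A had 132 and 126 CPM in the mono-culture controls, 226 and 378 CPM in mono-culture with FFA, 183 and 163 CPM in the co-culture controls and 421 and 302.2 CPM in co-culture with FFA. The FFA and control libraries were separate, and the change was 1.11 ± 0.19 (limma adjusted p = 0.0963). EEF1G changed by 0.34 (adjusted p = 0.109), EIF4A1 by 0.59 (adjusted p = 0.134) and EIF2AK1, the kinase that senses haem, by 1.36 (adjusted p = 0.173). In edgeR on the recovered reads 4 members passed, EIF5A at 0.98 (edgeR adjusted p = 2.05e-04), EIF4A1 at 0.39 (adjusted p = 0.0209), EIF2AK1 at 1.14 (adjusted p = 0.0441) and EIF3K, an eIF3 subunit, at -0.44 (adjusted p = 0.0281). Among all genes kept by its filter on reads, edgeR called 535. The share of the genes kept is not given here, so the 4 members are not set against a background. In all, FFA and control libraries did not overlap for 12 of 64 members, against 7.53% of all genes. The 11 higher with FFA, against 4.16% of all genes, were EEF1A1, EEF1G, EIF4A1, EIF5A, EIF4G1, EIF4E, EIF2AK1, EIF2AK2, EIF2B4, EIF2S3 and EIF3L, and EIF3K was lower. In co-culture FFA replicate 2, the shallowest library, EIF2AK2 rested on 1 read and EIF4G1 on 2, under the floor of 3 reads. EIF2AK1 rested on 4 reads there. By unadjusted p 18 of 64 members were under 0.05, 16 of them higher with FFA, against 13.8% of all genes tested (6.76% higher). With median-ratio scaling, which shifts all genes of a library alike, there were 11, of which 4 were higher, against 13.4% of all genes (2.78% higher). The median change of the members was 0.22 against -0.07 over all genes in the CPM values, and -0.07 against -0.26 after median-ratio scaling. For these medians and the counts above, the background was not matched for level of expression. Genes with at least 1 read numbered 5900 to 10581 in the HepG2 FFA libraries and 10588 to 13973 in the HepG2 controls. The part of this in the medians was not tested. The members with the TOP-like tract had a median change of 0.45, 10 of 13 being positive, and the 38 tested members without it 0.20. Over all genes the medians were 0.00 for 701 genes with the tract and -0.01 for 8478 without it.

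**Figure D5:**
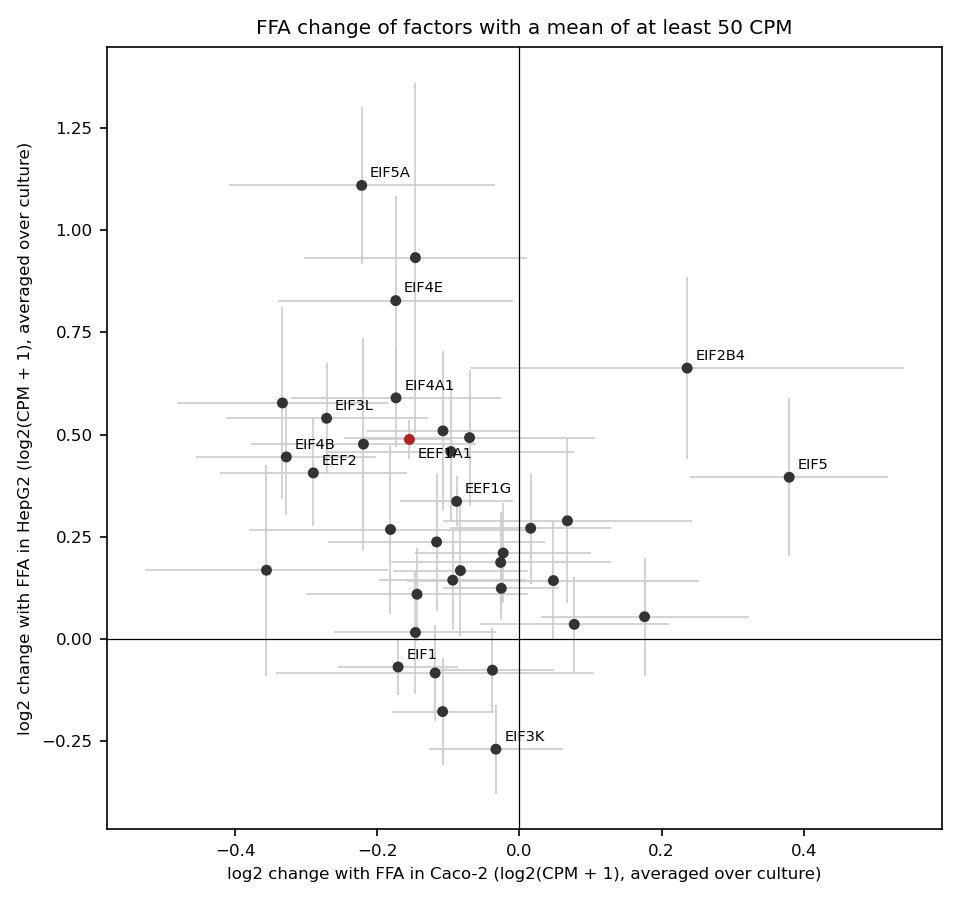
Log2 change with FFA, averaged over culture, in Caco-2 (horizontal axis) and in HepG2 (vertical axis) for the 36 factors with a mean of at least 50 CPM; bars are standard errors from limma, and the red point, EEF1A1, passed an adjusted p of 0.05 in HepG2. Most points lie above 0 in HepG2, EIF5A highest among them at 1.11, and EIF3K is lowest.

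In Caco-2 no member passed for FFA, in mono-culture, in co-culture or averaged over both, where 0.00647%, 0% and 0% of all genes passed in limma. By unadjusted p, 2, 8 and 6 of 65 members were under 0.05, against 5.80%, 4.88% and 4.85% of all genes. In co-culture the smallest p was that of EEF1A1, which had 9222 and 9811 CPM in the controls and 7303 and 7536 CPM with FFA. The FFA libraries were lower than both controls, with a change of -0.36 ± 0.083 (adjusted p = 0.862), and the change passed where genes under a mean of 10 CPM were left out (adjusted p = 0.0359). All 8 members with an unadjusted p under 0.05 in co-culture had lower values with FFA, against 2.42% of all genes, among them EIF4B (-0.52), EIF4E (-0.66) and EEF2 (-0.48). The 13 members with the TOP-like tract had a median change of -0.36 there, 2 of them positive, and the 39 without it -0.02, while over all genes both medians were 0. In mono-culture EEF1AKMT4 had the smallest p (-1.85, adjusted p = 0.837), as it did averaged over culture (-0.91, adjusted p = 0.829). EIF5 was the 1 member of 65 whose 4 FFA libraries (113 to 151 CPM) lay above the 4 controls (81.2 to 112 CPM). Of all genes, 1.15% were higher in this way and 1.89% did not overlap in either direction. In edgeR 0 members passed in each of these comparisons.

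The difference of the FFA change between the lines was tested directly. EEF1A1 was the 1 member of 65 that passed, at 0.64 ± 0.069 (HepG2 minus Caco-2, limma adjusted p = 0.00261), where 0.0912% of all genes passed. Its change averaged over culture was -0.15 in Caco-2 and 0.49 in HepG2. With median-ratio scaling the difference was 0.36 (adjusted p = 0.0651), with edgeR 0.31 (adjusted p = 0.210), and without HepG2 co-culture control replicate 2 it was 0.68 (limma adjusted p = 0.0527). EIF5A (1.33) and EEF1G (0.43) followed, both with a limma adjusted p of 0.0958, and in edgeR EIF5A was the member that passed (1.04, adjusted p = 0.00316). Among all genes kept by its filter on reads, edgeR called 404 there. Their share of the genes kept is not given here, so the call of EIF5A is not set against a background. By unadjusted p in limma 16 of 65 members were under 0.05, against 11.4% of all genes.

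Co-culture was compared with mono-culture in each line. In Caco-2, EIF1 fell in co-culture, and it was the 1 member of 65 that passed over both treatments, where 0.453% of all genes tested passed. EIF1 had 2479 and 2618 CPM in the mono-culture controls, 2243 and 2607 CPM in mono-culture with FFA, 1838 and 1939 CPM in the co-culture controls and 1386 and 1778 CPM in co-culture with FFA. All co-culture libraries lay below all mono-culture libraries, and the change was -0.53 ± 0.085 (SE, limma adjusted p = 0.0141). It kept its sign but missed the threshold in 7 of 8 fits that each left out 1 library (adjusted p 0.0667 to 0.186), passing only without co-culture FFA replicate 2 (adjusted p = 0.0186). With a pseudocount of 0.1 its adjusted p was 0.123 and with thinned libraries 0.268. In edgeR 6 members passed, all lower in co-culture: EIF1 (-0.61, adjusted p = 1.40e-04), EEF1D, EIF4A2, EIF1B, EIF2S2 and EIF3F. Among all genes kept by its filter on reads, edgeR called 389 there. Their share of the genes kept and their directions are not given here, so the 6 members are not set against a background. The summed hepatocyte markers were at 8932 to 10255 CPM in the Caco-2 mono-culture libraries and 11445 to 12109 CPM in co-culture, with 4 of 12 higher without overlap and 0 lower. The summed intestinal markers were at 123 to 153 CPM and 182 to 203 CPM, with 1 of 12 higher and 0 lower. The part of either list in these changes was not tested.

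EEF1D, the delta subunit of eEF1B, moved alongside without passing. It had 744 and 745 CPM in the mono-culture controls, 707 and 675 CPM in mono-culture with FFA, 531 and 545 CPM in the co-culture controls and 511 and 593 CPM in co-culture with FFA. The change was -0.40 (limma adjusted p = 0.0655), and the libraries of the cultures did not overlap. Mono-culture and co-culture were separate for 7 of 65 members, 6 lower in co-culture (EIF1, EIF1B, EEF1D, EIF2S2, EIF2B2, EIF3F) and EIF3K higher, against 5.93% of all genes (1.68% lower and 4.25% higher). With FFA, EIF1 had -0.62 (adjusted p = 0.0887) and EIF4A2 -0.58 (adjusted p = 0.255), and without FFA, EEF1D had -0.47 (adjusted p = 0.258), so that no member passed in either treatment, where 0.0971% of all genes passed in each. By unadjusted p, 14 members were under 0.05 in the average, 5 without FFA and 12 with FFA, against 11.8%, 10.3% and 7.78% of all genes.

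In HepG2 no member passed for co-culture, averaged over treatment, with FFA or without FFA, and 0% of all genes passed in each. By unadjusted p, 12, 13 and 1 of 64 members were under 0.05, against 7.72%, 14.7% and 2.61% of all genes, and in edgeR 0 members passed. EIF3F had 169 and 154 CPM in the mono-culture controls, 167 and 156 CPM in mono-culture with FFA, 176 and 215 CPM in the co-culture controls and 265 and 302.2 CPM in co-culture with FFA. All co-culture values were above all mono-culture values, the change was 0.53 (limma adjusted p = 0.554) and, with FFA, 0.80 (adjusted p = 0.190). EIF1 was lower in all HepG2 co-culture libraries too, 2882 to 3289 CPM against 3303 to 3946 CPM, with a change of -0.25 (adjusted p = 0.557). In all 6 of 64 members were separate by culture, against 2.31% of all genes. Of these, EEF2K had 1 to 3 reads in each mono-culture library and 0 in each co-culture library. EIF2B3 and EIF4H had 3 reads each in co-culture FFA replicate 2, which is the floor of detection. For the difference of the co-culture change between the lines no member passed in limma, against 0.0969% of all genes. EIF3F came closest at 0.85 (adjusted p = 0.111, and edgeR adjusted p = 0.0217), and 9 members had an unadjusted p under 0.05, against 9.72% of all genes. Nor did any member pass for the interaction of FFA and culture, where EEF1A1 in Caco-2 had -0.41 (adjusted p = 0.820) and EEF1AKMT3 in HepG2, on 10 reads in all, had -3.85 (adjusted p = 0.676). By unadjusted p 5 and 3 members were under 0.05 for the interaction in Caco-2 and HepG2, against 5.02% and 6.94% of all genes, where 0% passed in each and edgeR passed 0 members. In the F-test among the 4 groups of a line no member passed in limma, against 0.155% of all genes in Caco-2 and 0% in HepG2, and 10 and 17 members had an unadjusted p under 0.05, against 8.17% and 12.2%. There EIF1 in Caco-2 (adjusted p = 0.0664) and EEF1A1 in HepG2 (adjusted p = 0.0919) came closest.

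Related translation genes outside the members were counted on 2 lists. Of 40 genes of termination, recycling and regulation of the factors, 14 passed between the lines in limma, against 30.3% of all genes, 4 higher in HepG2 and 10 higher in Caco-2. Among them the cap-protein inhibitor EIF4EBP1 (1.38), the release factor GSPT1 (0.80) and DPH5 (2.20), an enzyme of the diphthamide of eEF2, were higher in HepG2. Its relative EIF4EBP3 (-1.70), PPP1R15A (-2.81), which directs the phosphatase of eIF2, and TPT1 (-0.59) were higher in Caco-2. Of 11 mitochondrial translation factors, 4 passed, with MTIF2 (1.23), MTERF4 (1.5) and TUFM (0.49), the mitochondrial counterpart of eEF1A, higher in HepG2 and MTIF3 (-1.33) higher in Caco-2. No gene of either list passed for FFA or co-culture in limma. For FFA in HepG2, averaged over culture, 6 of 37 and 2 of 11 had an unadjusted p under 0.05, against 13.8% of all genes.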

How the data were processed

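The deposited values, named TPM by the authors, were whole multiples of 1 step in each library (at least 99.6% of values whole, within 0.1 read) and were treated as CPM, from which the whole reads were recovered. The processing notes name minimap2 2.22 and GRCh38; the paper's methods describe removal of rRNA, tRNA and mitochondrial reads, STAR and RSEM for its sequencing without saying whether this holds for the Nanopore reads. The files do hold mitochondrial genes, and the use of strand in counting is not given in the sources used here. The tests had been planned for TPM and were applied to CPM unchanged. CPM were taken as log2(CPM + 1), and genes whose mean reached 1 CPM in any group were fitted with limma 3.58.1 (trended variance, group means, R 4.3.3) over the 8 libraries of a line or all 16, with Benjamini-Hochberg adjustment over all genes tested (15454 in Caco-2, 14430 in HepG2, 17544 over both). Scripts were tested on simulated data. Alternatives were edgeR 4.0.16 (quasi-likelihood test) on recovered reads, which called 535 genes for FFA in HepG2, 389 for co-culture in Caco-2 and 3411 between the lines, another pseudocount, other filters, quantile and median-ratio scaling, thinning, a replicate block and leaving out each library. Gene positions come from GENCODE 44. Up to 10 members were named per comparison (per direction between the lines) by size among those that passed, otherwise the smallest p, with a set of genes named for their role and the 10 with the highest mean CPM. Members named for groups that did not overlap were chosen after their values were seen. The members and lists were chosen with earlier results of these data known. The 2 lists and the markers were written from textbook knowledge. Intervals and the floor of 3 reads cover counting error only.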

Additional observations from a re-analysis of the deposited data

Results flagged for a closer look

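The change of EEF1A1 with FFA differed between the lines by 0.64 on the log2 scale (HepG2 minus Caco-2, averaged over culture), and the test of that difference passed in limma. EEF1A1 was higher in all 4 FFA libraries of HepG2 than in its 4 controls. In Caco-2 it was lower in the 2 co-culture FFA libraries than in the 2 co-culture controls, while the mono-culture libraries overlapped. Every HepG2 FFA library was shallower than every HepG2 control, and the part of depth in the difference was not tested beyond thinning, where it was 0.64 (limma adjusted p = 0.0945).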

How the results depend on the processing

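Members that passed are counted in this section, with the reported count in brackets. Except for the ordinary F-test, the share of all genes that passed is not given beside these counts. A changed count is therefore not a result about the factors apart from all genes. With a pseudocount of 0.1 there were 0 for Caco-2 co-culture averaged (1), 0 for HepG2 FFA averaged (1), 1 for HepG2 FFA in co-culture (0) and 1 for the line difference of co-culture (0). Without a filter on low values there were 1 for the Caco-2 F-test (0), 1 for Caco-2 co-culture with FFA (0), 2 for its average and 1 for HepG2 FFA in co-culture. At a mean of at least 10 CPM there were 2 for the Caco-2 F-test, 1 for Caco-2 FFA in co-culture (0), 1 and 3 for Caco-2 co-culture without and with FFA (0 each), 2 for its average and 2 for HepG2 FFA averaged. Quantile scaling gave 1 for the Caco-2 F-test, 1 and 2 for Caco-2 co-culture with FFA and averaged, 2 for the HepG2 F-test (0), and 1, 2 and 4 for HepG2 FFA in mono-culture (0), in co-culture and averaged. Median-ratio scaling gave 0 for HepG2 FFA averaged and 0 for the line difference of FFA (1). edgeR gave 3 for the Caco-2 F-test, 2, 2 and 6 for Caco-2 co-culture without FFA, with FFA and averaged, 2 for the HepG2 F-test, 1, 1 and 4 for HepG2 FFA in mono-culture, in co-culture and averaged, and 1 for the line difference of co-culture. Thinning gave 0 for Caco-2 co-culture averaged, 0 for HepG2 FFA averaged, 0 for the line difference of FFA, 14 between the lines (32), and 5 (14) and 1 (4) for the termination and mitochondrial lists, and it left fewer reads per gene. An ordinary F-test with the study's thresholds gave 8 of 65 in Caco-2 and 16 of 64 in HepG2, against 8.81% and 14.6% of all genes. Leaving out mitochondrial genes, an alternative chosen after seeing the data like the pseudogene reads and the exclusion of co-culture FFA libraries, gave 1 for the Caco-2 F-test, 1 for Caco-2 co-culture with FFA and 1 for HepG2 FFA in co-culture. The causes were not tested.

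Samples of the same replicate number deviated together with a mean correlation of 0.0120 in Caco-2 and 0.00332 in HepG2 over all genes tested. Among genes averaging 100 CPM or more it was 0.151 in Caco-2 (-0.0172 to 0.291) and 0.0529 in HepG2 (-0.103 to 0.121). Some pairs were under 0.1 in each case and no label ties the numbers, so the samples were treated as sharing only a number. With the replicate block there were 1 for the Caco-2 F-test, 1, 1 and 2 for Caco-2 co-culture without FFA, with FFA and averaged, and 2 for the line difference of FFA. Leaving out each library gave 28 to 39 members between the lines, 0 to 9 for the line difference of FFA and 0 to 6 for that of co-culture. In Caco-2 it gave 0 to 2 for the F-test and the interaction, 0 to 1 for FFA in mono-culture, co-culture and averaged, and 0 to 1, 0 to 4 and 0 to 3 for co-culture without FFA, with FFA and averaged. In HepG2 it gave 0 to 10 for the F-test, 0 to 20 and 0 to 16 for FFA in co-culture and averaged, 0 to 20 and 0 to 10 for co-culture with FFA and averaged, and 0 to 8 for the interaction, the highest all without co-culture FFA replicate 1, which leaves the shallowest library alone in its group and assumed to vary like the others. The lists gave 9 to 19 (termination) and 3 to 6 (mitochondrial). Over all genes, limma called 11 for FFA in HepG2, 70 for co-culture in Caco-2 and 16 for the line difference of FFA, and edgeR called 535, 389 and 404. No difference of a gene that the naming rule chose by its p changed sign under these alternatives.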
